A study of Rattus norvegicus with 12 samples.

Results

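The renin-angiotensin system was described through 8 genes of the rat kidney: Agt, Ace, Mme, Enpep, Agtr1a, Agtr1b, Agtr2 and Mas1. They were taken by gene symbol from the 2 deposited tables, which together list 27723 different symbols, and each was listed once wherever it occurred. The sham and UUO table held 8 of them and the control and adenine table held 7, so the control and adenine groups were not analysed here for Agtr2. The study induced renal fibrosis in male wild-type Sprague-Dawley rats, bought at an age of 8 weeks, by a chemical and by a surgical route, and kidney RNA was sequenced from 3 rats per group. For 3 weeks the adenine rats were gavaged with a daily dose of adenine (220 mg/kg), and their controls were given saline instead. Rats of the UUO group had the left ureter tied (unilateral ureteral obstruction), and they were compared with sham-operated rats at 2 weeks. Each of the 12 libraries came from the kidney of 1 rat, was made from polyadenylated RNA and was not sorted by cell type. Expression is given as FPKM, a level per transcript length and per sequencing yield of the library.

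The system begins with angiotensinogen, which renin cuts to angiotensin I and angiotensin-converting enzyme then trims to angiotensin II, a peptide that raises blood pressure and promotes sodium retention. Peptidases on cell surfaces shorten these peptides further, and the type 1 receptor carries most of the known actions of angiotensin II, while the type 2 receptor and the Mas receptor are known for opposing ones. The kidney holds its own set of these components, with angiotensinogen and several of the peptidases in the proximal tubule.

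The 250 bases before the start of 4 of the genes are shown because these genes carry the main results: the pair of type 1 receptors, and the 2 peptidases with the highest levels in control kidneys. Sequences are those of RefSeq on the build GRCr8, written 5′ to 3′ on the strand of the gene. The window of Agtr1a was chr17:34435433-34435682 (minus strand), that of Agtr1b chr2:104849263-104849512 (minus strand), that of Mme chr2:149872247-149872496 (plus strand) and that of Enpep chr2:220526219-220526468 (minus strand). Capitals mark matches on either strand to TATAAA (the letters of a TATA box), to GGGCGG (those of a GC box) or to GTTAAT (a half-site of the tubular factor HNF1).
Agtr1a: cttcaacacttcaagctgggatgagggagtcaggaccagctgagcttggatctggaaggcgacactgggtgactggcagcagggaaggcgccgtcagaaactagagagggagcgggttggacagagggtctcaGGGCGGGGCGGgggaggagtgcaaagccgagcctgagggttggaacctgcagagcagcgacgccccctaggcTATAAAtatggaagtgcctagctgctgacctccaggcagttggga
Agtr1b: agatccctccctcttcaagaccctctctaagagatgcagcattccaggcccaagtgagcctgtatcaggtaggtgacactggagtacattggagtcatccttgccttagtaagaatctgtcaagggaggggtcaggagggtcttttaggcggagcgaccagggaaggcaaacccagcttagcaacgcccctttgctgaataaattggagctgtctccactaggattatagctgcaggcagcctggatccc
Mme: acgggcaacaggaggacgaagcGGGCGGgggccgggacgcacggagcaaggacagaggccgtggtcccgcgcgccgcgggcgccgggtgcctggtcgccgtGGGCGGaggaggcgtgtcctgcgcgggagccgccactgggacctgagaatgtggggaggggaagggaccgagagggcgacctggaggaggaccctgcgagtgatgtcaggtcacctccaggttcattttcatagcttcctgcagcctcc
Enpep: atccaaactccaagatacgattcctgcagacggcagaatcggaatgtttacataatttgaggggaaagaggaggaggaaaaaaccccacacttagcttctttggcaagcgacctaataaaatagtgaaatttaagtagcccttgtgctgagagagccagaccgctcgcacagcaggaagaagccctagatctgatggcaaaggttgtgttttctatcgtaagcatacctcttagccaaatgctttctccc
The receptor pair differed in these letters. The Agtr1a window held TATAAA, whose first base lay 45 bases before the start, and a pair of GGGCGG matches at 117 and 112 bases that share 1 base, while the window of Agtr1b held none of the 3 motifs. The Mme window held GGGCGG at 228 and 149 bases before the start, and that of Enpep held none of them. Over 33469 promoter windows of this length, TATAAA was found in 12.9%, GGGCGG in 30.5% and GTTAAT in 6.45%. GC content was 60.8% for Agtr1a, 52.8% for Agtr1b, 70.4% for Mme and 45.2% for Enpep.

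Of 6 proximal tubule markers, Lrp2 (megalin) was at 99.9 to 129 FPKM in the control group and 164 to 175 FPKM in the sham group. Slc5a2 and Slc5a12 were the lowest of them in the control group, at 0.232 to 13.7 and 0.0254 to 1.81 FPKM. One library stood apart from its group: in control rat 2 the summed level of 4 podocyte markers was 20.1 FPKM against 69.4 and 76.7 in the other control rats, and Klk1 was at 33.3 against 324 and 493. This rat also had the highest urothelial marker sum of the controls (6.90 against 0.740 and 1.46 FPKM). Its Slc5a2, Slc5a12 and Hsd11b2 levels were the lowest of the controls, with Hsd11b2 at 90.6 against 201 and 185 FPKM. The part of the kidney that was sampled is not given in the sources used here. Values without control rat 2 are given for Agt, Klk1, Kng1, Hsd11b2, Slc5a12 and the podocyte markers. The number of reads per library is unknown. Summed FPKM was 564972 to 582725 in the control group and 468389 to 487770 in the adenine group, and it was 619664 to 630244 in the sham group and 528811 to 539011 in the UUO group.

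Of the 7 system genes listed for the adenine model, 6 reached the minimum level for testing (0.5 FPKM in at least 3 of 6 rats), 5 fell and 0 rose (adjusted p below 0.05). In the UUO model 6 of 8 were tested, 3 fell and 0 rose. Among all 15029 genes tested with adenine 59.4% passed the test and 19.9% fell, and among the 15043 tested with UUO 70.5% passed and 14.4% fell. DEGs that fell (a log2 fold change of -2 or lower) were 4 members with adenine and 3 with UUO, against 5.03% and 4.21% of all tested genes. Groups did not overlap, with every injured rat lower, for 5 members with adenine and 3 with UUO, against 23% and 15.7% of all tested genes. Genes called lower made up 33.5% of all called genes with adenine and 20.4% with UUO, and 49.4% and 49.9% after median-of-ratios scaling of the FPKM values. The median log2 fold change of the tested system genes was -2.59 with adenine and -1.41 with UUO, against 0.30 and 0.62 for everything tested. Agtr1b reached the minimum level in the adenine model only through the control rats, so it could not pass that minimum without differing. Of the other 5 genes tested with adenine, 4 fell, 3 were DEGs, 4 did not overlap and the median log2 fold change was -2.59. Without control rat 2, 5 members still passed the test in the adenine model.

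**Figure D1:**
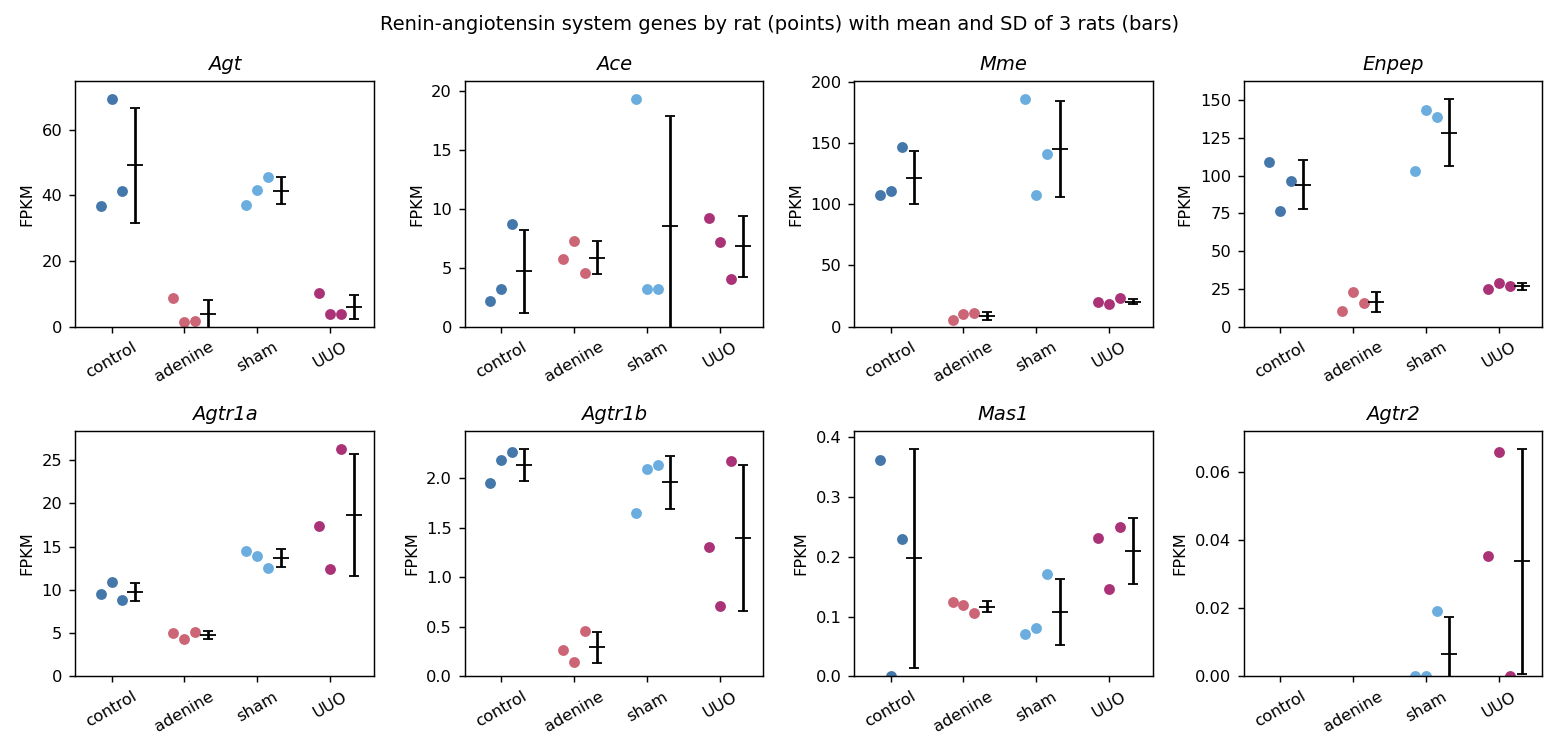
FPKM (linear axes, a separate scale for each gene) of the 8 system genes in each rat of the 4 groups, as points, with the mean and SD of 3 rats as bars. Agt, Mme and Enpep are lower in every adenine and UUO rat than in any rat of the matching control or sham group, while Ace overlaps in both models and Agtr2 has no points for control and adenine.

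Agt encodes angiotensinogen, the only substrate of renin, and it fell in both models. Agt was at 36.7, 69.3 and 41.5 FPKM in the control rats and at 8.64, 1.31 and 1.65 FPKM in the adenine rats. The groups did not overlap, and adenine rat 1 kept the highest level of its group. The mean fell from 49.2 ± 17.6 (SD, n = 3) to 3.86 ± 4.14, which was 12.7-fold lower, with a log2 fold change of -4.09 (SE 0.68, adjusted p = 0.00237). Without adenine rat 1 the log2 fold change was -4.92, and without control rat 2, the rat with the highest Agt level, it was -3.81 (adjusted p = 0.00999). In the other model Agt was at 37.2, 41.6 and 45.6 FPKM in the sham rats and at 10.3, 3.88 and 3.98 FPKM in the UUO rats. Again 1 rat of the injured group was above the other two without reaching the sham range. The mean was 6.85-fold lower after UUO, 6.06 ± 3.69 against 41.5 ± 4.19 FPKM (SD, n = 3), with a log2 fold change of -2.91 (SE 0.37, adjusted p = 0.000476). Of all genes tested, 150 had a lower log2 fold change than Agt with adenine and 348 with UUO.

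Ace encodes angiotensin-converting enzyme, and its level was not shown to differ from control or sham in either model. Ace was at 2.17, 3.20 and 8.70 FPKM in the control rats and 5.72, 7.27 and 4.53 FPKM in the adenine rats. It was at 19.3, 3.22 and 3.21 FPKM in the sham rats and 9.18, 7.18 and 4.07 FPKM in the UUO rats. In both comparisons the groups overlapped because 1 reference rat, control rat 3 or sham rat 1, had the highest value of all. The log2 fold change was 0.53 (95% confidence interval -0.64 to 1.70, adjusted p = 0.381) with adenine and 0.13 (-1.57 to 1.83, adjusted p = 0.875) with UUO. Without control rat 3 the log2 fold change with adenine was 1.09 (adjusted p = 0.0212), and without sham rat 1 that with UUO was 0.98 (adjusted p = 0.0465), so each call depended on 1 reference rat. The group means went the other way with UUO, at 8.57 ± 9.27 FPKM in the sham rats and 6.81 ± 2.57 FPKM in the UUO rats (SD, n = 3), and their log2 ratio was -0.33. Both of these rats also had the highest Mme and Anpep levels of their groups, with Anpep at 259.8 FPKM in control rat 3 and 417 in sham rat 1, and the part of this in the Ace result was not tested. The sign with UUO depended on scaling too, with -0.46 under median-of-ratios scaling and -0.57 under quantile normalization.

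Mme encodes neprilysin, a brush-border peptidase that cuts angiotensin I to angiotensin-(1-7) and also degrades natriuretic peptides and kinins, and it fell in both models. Mme was at 108, 110.4 and 147 FPKM in the control rats and at 5.36, 10.3 and 11.2 FPKM in the adenine rats. Every control rat was thus far above every adenine rat, and the mean was 13.5-fold lower, at 8.98 ± 3.17 against 122 ± 21.8 FPKM (SD, n = 3). The log2 fold change was -3.80 (SE 0.29, adjusted p = 0.000108). In the UUO model Mme was at 186, 108 and 141 FPKM in the sham rats and at 19.8, 18.7 and 23.1 FPKM in the UUO rats. The UUO rats lay close together, at 20.5 ± 2.29 FPKM (SD, n = 3), and below all sham rats. The decrease was 7.05-fold, with a log2 fold change of -2.78 (SE 0.20, adjusted p = 5.06e-05).

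Enpep encodes aminopeptidase A, which removes the first residue of angiotensin II to give angiotensin III, and it fell in both models as well. Enpep was at 109, 76.6 and 96.7 FPKM in the control rats and at 10.1, 22.9 and 15.9 FPKM in the adenine rats. The groups did not overlap, and the mean was 5.79-fold lower, at 16.3 ± 6.41 against 94.1 ± 16.4 FPKM (SD, n = 3). The log2 fold change was -2.59 (SE 0.30, adjusted p = 0.000492). In the sham rats Enpep was at 103, 143 and 139 FPKM and in the UUO rats at 24.7, 29.1 and 26.7 FPKM. The 3 UUO rats had nearly the same level, below every sham rat, and the mean was 4.79-fold lower with a log2 fold change of -2.24 (SE 0.15, adjusted p = 3.57e-05). The RNA came from unsorted kidney tissue, so fewer cells of a type and less RNA per cell cannot be told apart for any gene described here.

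Agtr1a and Agtr1b are the rodent copies of the type 1 angiotensin II receptor gene, and both fell with adenine. Agtr1a was at 9.53, 10.9 and 8.84 FPKM in the control rats and at 5.05, 4.29 and 5.08 FPKM in the adenine rats. The level fell 2.03-fold without overlap between the groups, a log2 fold change of -1.01 (SE 0.14, adjusted p = 0.00112), which is below the study's threshold of 2 for a differentially expressed gene (DEG). Agtr1b was at 1.96, 2.19 and 2.27 FPKM in the control rats and at 0.267, 0.150 and 0.459 FPKM in the adenine rats. The groups did not overlap, and the mean was 7.32-fold lower, with a log2 fold change of -2.59 (SE 0.34, adjusted p = 0.000806). It reached the minimum level for this test only through the control rats. With a pseudocount of 1 the log2 fold change of Agtr1b was -1.29, which is no longer that of a DEG. The genes are close copies of each other, so how their reads were shared between them is uncertain.

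After UUO neither receptor copy was shown to differ from sham. Agtr1a was at 14.5, 14.0 and 12.5 FPKM in the sham rats and at 17.4, 12.4 and 26.3 FPKM in the UUO rats. The groups overlapped through UUO rat 2, and the log2 fold change was 0.38 (95% confidence interval -0.23 to 0.999, adjusted p = 0.221). It was 0.64 (adjusted p = 0.0300) without UUO rat 2, and -0.21 and -0.12 with median-of-ratios scaling and quantile normalization, so neither a call nor a direction held. Agtr1b was at 1.65, 2.10 and 2.14 FPKM in the sham rats and at 1.30, 0.710 and 2.18 FPKM in the UUO rats. UUO rat 3 was above all sham rats and the other two were below them, and the log2 fold change was -0.58 (-1.50 to 0.34, adjusted p = 0.214). It passed the test without UUO rat 3 (-0.94, adjusted p = 0.0420), with median-of-ratios scaling (-1.14, adjusted p = 0.0322) and with quantile normalization (-1.41, adjusted p = 0.0151).

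Within each rat, the level of Agtr1a relative to Agtr1b was higher in both models, a comparison that does not depend on how a library was scaled and that was chosen after the values were seen. The ratio of Agtr1a to Agtr1b FPKM was 4.87, 5.00 and 3.90 in the control rats and 18.9, 28.7 and 11.1 in the adenine rats. It was 8.78, 6.65 and 5.88 in the sham rats and 13.3, 17.4 and 12.1 in the UUO rats. The adenine ratios rest on Agtr1b levels below the minimum of 0.5 FPKM in every adenine rat (0.267, 0.150 and 0.459 FPKM). How reads were shared between these close copies is uncertain, which bears on the ratio in both models. Every injured kidney was above every reference kidney of its model, with a difference of 1.99 (adenine) and 1.01 (UUO) in the mean log2 ratio. Agtr1b made up 16.7 to 20.4% of the summed level of both copies in the control group and 3.37 to 8.29% in the adenine group, and 10.2 to 14.5% in the sham group and 5.43 to 7.64% in the UUO group. The exact two-sided permutation test gave p = 0.1 in each model, the smallest p that 3 against 3 rats allow, and adjustment over the 2 ratio tests made left it at 0.1.

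The receptors known for actions opposing the type 1 receptor were at the lower end of the measured range, and neither reached the minimum level for testing. Mas1, the receptor of angiotensin-(1-7), was at 0.362, 0 and 0.230 FPKM in the control rats and at 0.124, 0.120 and 0.106 FPKM in the adenine rats (exact permutation p = 0.8). It was at 0.0715, 0.0809 and 0.171 FPKM in the sham rats and at 0.232, 0.146 and 0.250 FPKM in the UUO rats (exact permutation p = 0.2). Both comparisons overlapped. Agtr2, the type 2 receptor, was at 0.0001, the lowest value of its table, in sham rats 1 and 2 and UUO rat 3, and at 0.0191 in sham rat 3, 0.0353 in UUO rat 1 and 0.0661 in UUO rat 2 (exact permutation p = 0.4). No difference in either gene could be detected at these levels.

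**Figure D2:**
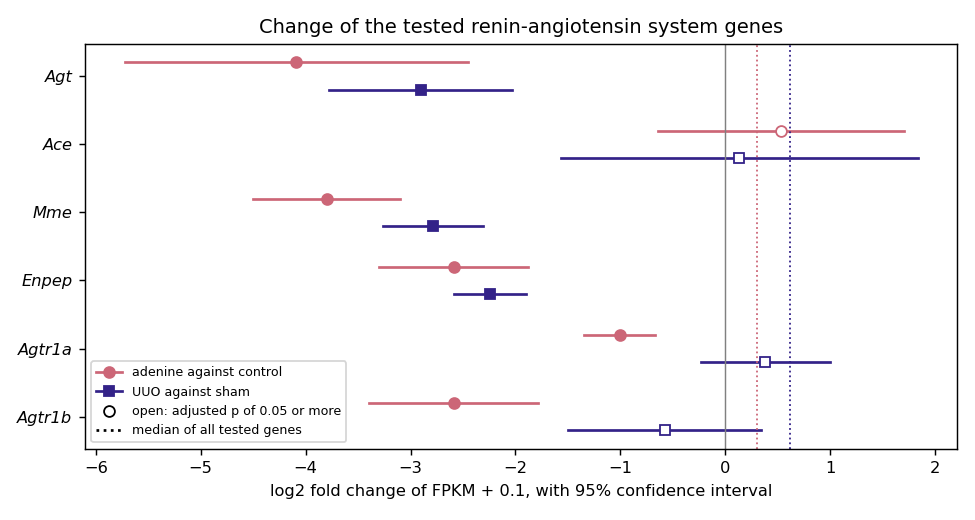
Log2 fold change of FPKM + 0.1 (x axis) with its 95% confidence interval for the 6 tested system genes (y axis), circles for adenine against control and squares for UUO against sham, filled where the adjusted p was below 0.05. Agt, Mme and Enpep lie left of -2 in both models, Agtr1a and Agtr1b are filled only for adenine, and dotted lines mark the medians of all tested genes at 0.30 and 0.62.

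The order of the mean levels was not the same in the 4 groups. In the control group Mme (122 ± 21.8 FPKM, SD, n = 3) and Enpep (94.1 ± 16.4) came first with overlapping ranges, followed by Agt (49.2 ± 17.6), Agtr1a (9.77 ± 1.06), Ace (4.69 ± 3.51) and Agtr1b (2.14 ± 0.162). The ranges of Ace and Agtr1b overlapped, and Mas1 was lowest. In the adenine group Enpep (16.3 ± 6.41), Mme (8.98 ± 3.17), Ace (5.84 ± 1.38), Agtr1a (4.81 ± 0.446) and Agt (3.86 ± 4.14) formed a run in which each range overlapped the next, above Agtr1b (0.292 ± 0.156) and Mas1. In the sham group Mme (145 ± 39.2) and Enpep (128 ± 22.3) overlapped and stood above Agt (41.5 ± 4.19), then Agtr1a (13.7 ± 1.01) and Ace (8.57 ± 9.27), which overlapped, then Agtr1b (1.96 ± 0.269). In the UUO group Enpep (26.8 ± 2.22) stood above Mme (20.5 ± 2.29). Agtr1a (18.7 ± 7.05) had a range overlapping those of both, with a highest level of 26.3 against a lowest Enpep level of 24.7. Ace (6.81 ± 2.57) and Agt (6.06 ± 3.69), which overlapped, came next, followed by Agtr1b (1.40 ± 0.737). Agtr1a was thus among the leading genes after UUO, in a range overlapping those of Mme and Enpep, and Agt lay in the range of Ace instead of above Agtr1a.

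Both models were also compared with each other through their log2 fold changes, since the tables were deposited separately and levels were not tested across them. Of 13486 symbols that could be compared, 27.0% differed between the models and 21.8% had the lower log2 fold change with adenine. The type 1 receptors differed. Agtr1a was lower with adenine by 1.39 on the log2 scale (difference -1.39, SE 0.29, adjusted p = 0.00482) and Agtr1b by 2.01 (difference -2.01, SE 0.51, adjusted p = 0.0121), and both calls held in all 21 alternatives. Agtr1b could enter this comparison only through its level in the control rats, so its difference is not independent of the minimum level. The difference for Mme was -1.02 (SE 0.35, adjusted p = 0.0475), and this call was lost in 14 of 21 alternatives, with adjusted p from 0.0194 to 0.159. It held without adenine rat 2, adenine rat 3 or sham rat 1 and was lost when any other rat was left out. No difference was shown for Agt (-1.18, 95% confidence interval -2.86 to 0.49, adjusted p = 0.274), Enpep (-0.35, -1.06 to 0.37, adjusted p = 0.464) or Ace (0.40, -1.47 to 2.26, adjusted p = 0.763). For Agt it was -2.01 (adjusted p = 0.0123) without adenine rat 1. Relative to the median of all tested genes, log2 fold changes with adenine and UUO were -4.39 and -3.52 for Agt, -4.10 and -3.40 for Mme, -2.89 and -2.86 for Enpep, -1.31 and -0.23 for Agtr1a, -2.89 and -1.20 for Agtr1b, and 0.23 and -0.48 for Ace.

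A list of 21 other genes of angiotensin formation, breakdown and reception and of the kinin and aldosterone branches held genes that rose and genes that fell in each model. With adenine 16 were tested, of which 5 rose, 3 fell and 8 did not pass the test, and with UUO 14 were tested, of which 2 rose, 5 fell and 7 did not pass. Over all tested genes 39.6% rose and 19.9% fell with adenine, and 56.1% rose and 14.4% fell with UUO. With UUO more genes of the list fell than rose, unlike over all tested genes, but these counts depended on scaling. With FPKM rescaled to the same sum 12 genes of the list passed the test, against 7 as reported, and the fall of Atp6ap2 was lost. After median-of-ratios scaling 49.9% of all called genes were lower with UUO, against 20.4% as reported. The median log2 fold change of the list was 0.19 with adenine and 0.22 with UUO, against 0.30 and 0.62 over all tested genes.

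**Figure D3:**
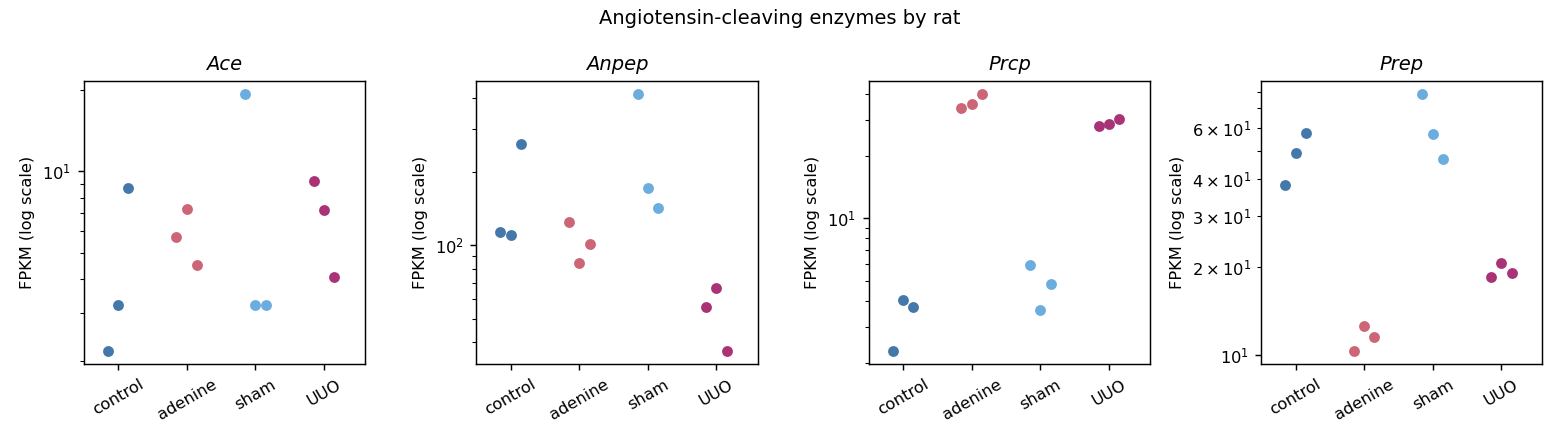
FPKM on log axes of Ace, Anpep, Prcp and Prep in each rat (points) by group. Prcp is higher and Prep lower in every injured kidney than in any reference kidney of its model, Anpep separates the groups only for UUO, and the points of Ace overlap between groups.

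Atp6ap2, the (pro)renin receptor, had a log2 fold change of -0.085 with adenine (adjusted p = 0.685) and fell by 0.45 on the log2 scale with UUO (adjusted p = 0.0190), a call that was lost without sham rat 3, UUO rat 1 or UUO rat 2 (adjusted p = 0.0532, 0.0528 and 0.0619). It was lost as well with FPKM rescaled to the same sum (-0.22, adjusted p = 0.165) and with no minimum level (adjusted p = 0.0753).

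The peptidases of the list went in both directions. Anpep, aminopeptidase N, which shortens angiotensin III, was at 113, 110.1 and 259.8 FPKM in the control rats and at 125, 84.6 and 101 FPKM in the adenine rats, overlapping groups with a log2 fold change of -0.54 (adjusted p = 0.221). It was at 417, 172 and 142 FPKM in the sham rats and at 55.7, 66.5 and 36.7 FPKM in the UUO rats, and it fell there by 2.07 on the log2 scale (SE 0.42, adjusted p = 0.00412). The difference between the models was 1.54 (adjusted p = 0.0524), and it passed the test without control rat 3 (1.94, adjusted p = 0.0117) or sham rat 3 (1.84, adjusted p = 0.0295) and with the replicate number as a block (adjusted p = 0.0301). It also passed with a pseudocount of 1 (adjusted p = 0.0489), median-of-ratios scaling (adjusted p = 0.0373) and quantile normalization (adjusted p = 0.0460). Prcp, a lysosomal carboxypeptidase that trims angiotensin II and III, rose from 3.35 ± 0.947 to 36.6 ± 3.00 FPKM with adenine and from 4.79 ± 1.18 to 28.9 ± 1.13 FPKM with UUO (SD, n = 3), with log2 fold changes of 3.45 and 2.60 (adjusted p = 6.21e-05 and 4.73e-05). Prep, a cytosolic prolyl endopeptidase, fell in both, with log2 fold changes of -2.06 with adenine (adjusted p = 0.000134) and -1.62 with UUO (adjusted p = 0.000295). Lnpep, the insulin-regulated aminopeptidase that binds angiotensin IV, rose with adenine (log2 fold change 1.37, adjusted p = 0.0107) and was below the minimum level in the UUO table, and quantile normalization ended the call with adenine (adjusted p = 0.0681). Its levels were low, at 0.547, 0.303 and 0.214 FPKM in the control rats and 0.994, 1.02 and 1.06 FPKM in the adenine rats. Of the controls only rat 1 reached 0.5 FPKM.

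In the kinin and aldosterone branches Klk1, a tissue kallikrein that releases kinin, fell with adenine from 324, 33.3 and 493 FPKM in the control rats to 2.27, 9.77 and 1.51 FPKM, a log2 fold change of -5.70 (SE 1.12, adjusted p = 0.00467). Control rat 2 was lowest of the controls here too, and the log2 fold change was -6.90 without it, -4.95 without control rat 3 and -6.48 without adenine rat 2. Klk1 belongs to a family of near-identical genes, so the assignment of its reads is uncertain. Its level in the sham and UUO groups was not analysed here. Kng1, the kininogen gene, rose with adenine by 2.04 on the log2 scale (adjusted p = 0.0285), a call that was lost without control rat 2, control rat 3 or adenine rat 2 (adjusted p = 0.0787, 0.0637 and 0.0627) and with the replicate number as a block (adjusted p = 0.0698) or quantile normalization (1.49, adjusted p = 0.0835). In the control rats Kng1 was at 0.815, 0.190 and 0.472 FPKM, and only rat 1 of them reached 0.5 FPKM. Nr3c2, the mineralocorticoid receptor, was named after its values were seen. It fell with UUO from 4.25 ± 0.601 to 1.63 ± 0.0842 FPKM (SD, n = 3, log2 fold change -1.32, adjusted p = 0.000546) and had a log2 fold change of 0.39 with adenine (adjusted p = 0.356), and the models differed by 1.71 (SE 0.38, adjusted p = 0.00632).

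**Figure D4:**
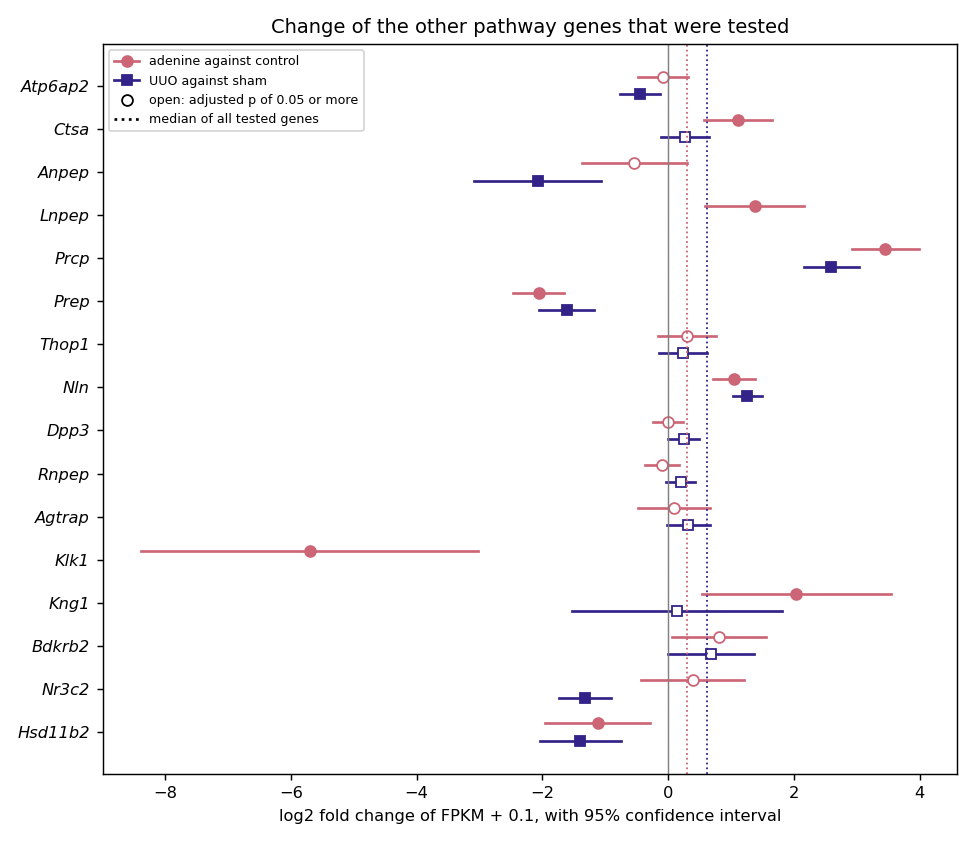
Log2 fold change of FPKM + 0.1 (x axis) with its 95% confidence interval for the tested genes of the 21-gene pathway list (y axis), circles for adenine against control and squares for UUO against sham, filled where the adjusted p was below 0.05. Prep lies on the lower side and Prcp and Nln on the higher side in both models, and dotted lines mark the medians of all tested genes.

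Markers of several cell types also changed, in differing directions. The summed level of 6 proximal tubule markers was 722 to 1511 FPKM in the control group and 42.8 to 232 in the adenine group, and 963 to 1353 in the sham group and 88.8 to 233 in the UUO group. Slc34a1 was the largest part of this sum in the control group (mean 724 FPKM) and the sham group (mean 732 FPKM). In both models 3 of the 6 fell, namely Lrp2, Slc34a1 and Slc22a6, with log2 fold changes of -2.75, -4.31 and -3.88 with adenine and -2.09, -3.86 and -4.54 with UUO. The list was not uniform, since Slc5a12 rose with adenine (log2 fold change 4.0, adjusted p = 0.0130, and 3.03, adjusted p = 0.0239, without control rat 2) and Cubn and Slc5a2 did not pass the test in either model. The 4 podocyte markers summed to 20.1 to 76.7 FPKM in the control group (69.4 and 76.7 without control rat 2) and 34.4 to 44.5 in the adenine group, and to 55.6 to 99.5 in the sham group and 49.7 to 84.9 in the UUO group. Only Podxl passed the test with adenine (log2 fold change -1.46, adjusted p = 0.0239) and only Synpo with UUO (1.18, adjusted p = 0.00318). Without control rat 2, Nphs1 (-2.43, adjusted p = 0.00530) and Podxl (-1.94, adjusted p = 0.00237) fell with adenine. Synpo then rose (0.68, adjusted p = 0.0176) and Ptpro did not pass.

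Macrophage and mesenchymal markers rose in both models and urothelial markers rose with UUO. Macrophage markers summed to 13.2 to 16.7 FPKM in the control group and 400.5 to 631 in the adenine group, and to 14.5 to 21.9 in the sham group and 175 to 209 in the UUO group, and 5 of 5 rose in each model, 1 of which reached the minimum level only through the injured rats in both models. Fibroblast, pericyte and smooth muscle markers summed to 75.1 to 91.6 FPKM in the control group and 339.6 to 429 in the adenine group, and to 69.4 to 93.0 in the sham group and 744 to 1274 in the UUO group, with 5 of 6 rising in each. Endothelial markers summed to 70.1 to 78.7 FPKM in the control group and 38.6 to 54.4 in the adenine group, and to 71.8 to 94.2 in the sham group and 126 to 153 in the UUO group, with 2 of 4 rising and 1 falling with adenine and 2 of 4 rising with UUO. The gene that fell was Emcn (mean 51.0 FPKM in the control group, 14.8 in the adenine group), the largest part of the control sum, while Cdh5 and Tie1 rose. Urothelial markers summed to 0.740 to 6.90 FPKM in the control group, 1.06 to 3.76 in the adenine group, 0.646 to 2.65 in the sham group and 69.4 to 136 in the UUO group, and 4 of 4 rose with UUO, 3 of which reached the minimum level only through the UUO rats. Lymphocyte markers summed to 2.89 to 4.58, 12.1 to 22.3, 2.72 to 3.81 and 25.6 to 70.9 FPKM in the groups in the order used above. Of the adrenal gland markers none reached the minimum level, and their sum stayed at or below 2.17 FPKM in every rat. No marker of these lists stood at the lowest value in all rats of a table. The part of these cell types in the levels of the system genes was not tested.

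**Figure D5:**
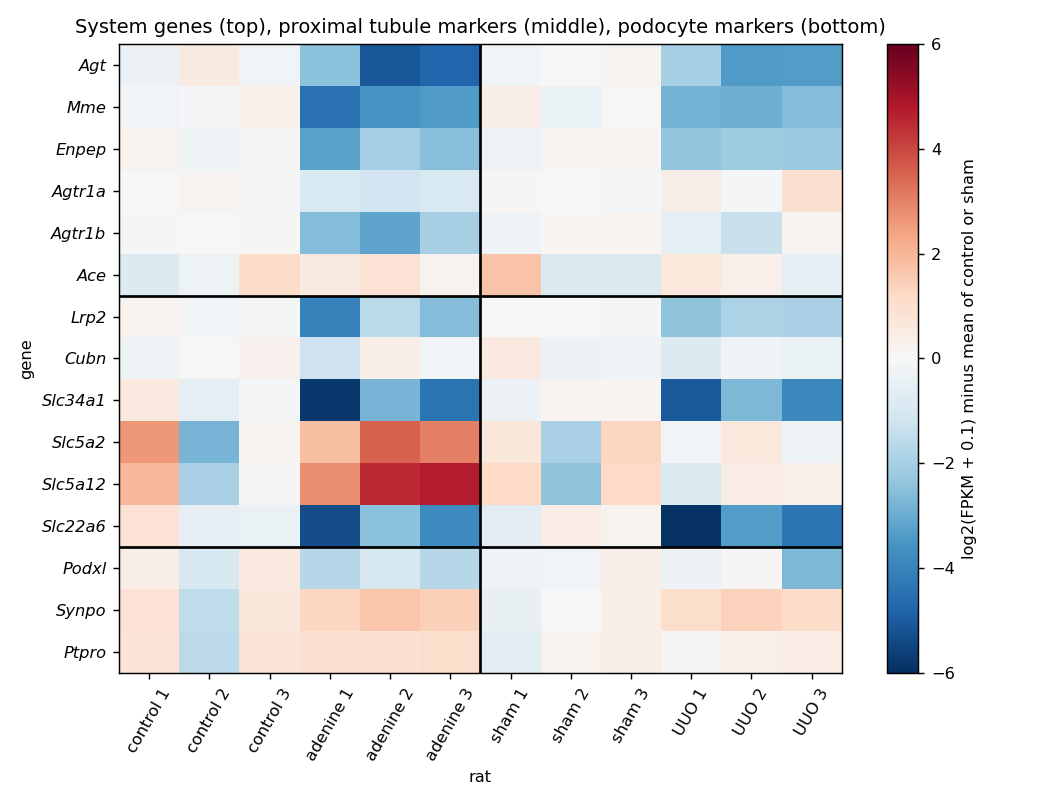
Heat map of log2(FPKM + 0.1) minus the mean of the control or sham rats of the same table (colour) for each rat (x axis), with system genes on top, proximal tubule markers in the middle and 3 podocyte markers at the bottom (y axis). Agt, Mme and Enpep are blue in all 6 injured kidneys, as are 3 of the 6 proximal tubule markers (Lrp2, Slc34a1 and Slc22a6). Of the other tubule markers Cubn and Slc5a2 overlap between groups in both models and Slc5a12 is red in the adenine rats. Control rat 2 is blue for the podocyte markers.

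For each tested system gene the genes with the most similar pattern were listed among 13485 other symbols, by the root mean square difference of the log2 values over 12 samples after subtracting the control or sham mean of each table. For Agt these were Slc4a1 (0.54), Csad (0.54) and Foxp2 (0.60). For Ace they were Slc26a11 (0.43), LOC691418 (0.44) and Acot7 (0.46). Agtr1a was followed by Cmc4 (0.18), Cdkn2aip (0.19) and Upf2 (0.19), and Agtr1b by Ttc32 (0.39), Ttll3 (0.40) and Acyp2 (0.41). For Mme they were Gclm (0.27), RGD1559960 (0.32) and Usp26 (0.33), and for Enpep Galnt11 (0.16), AABR07005535 (0.19) and Aldh1l1 (0.20). Neither receptor copy was among the most similar genes of the other, and Mme and Enpep were likewise not listed for each other. Only the 3 nearest of 13485 symbols were kept for each gene, so this absence does not show that their patterns differ.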

How the data were processed

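The authors isolated total RNA from the kidneys, purified polyadenylated RNA and sequenced libraries of 12 rats on an Illumina instrument. The deposited values are FPKM per gene, in one table for control and adenine and another for sham and UUO. Per the labels, the submitters' processing notes name cutadapt 1.9, HISAT2 2.0.4, StringTie 1.3.4d, edgeR and DESeq2, with no role given. The genome build and annotation are not given in the sources used here. The tables hold 22132 and 32623 entries with a lowest FPKM of 0 and 0.0001, and each was fitted alone. Read counts, and with them depth and counting error, are unknown, and precision rests on how far the 3 rats of a group differ.

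The scale was log2(FPKM + 0.1), which understates changes of low genes, and entries were tested if they had at least 0.5 FPKM in at least 3 of 6 rats. In R 4.3.3, limma 3.58.1 with a mean-variance trend in eBayes gave log2 fold changes, standard errors and two-sided p-values, adjusted by Benjamini-Hochberg over all entries tested in the table. A DEG had, besides an adjusted p under 0.05, a log2 fold change of 2 or more in size. Models were compared by subtracting their log2 fold changes and dividing by the combined standard error, with the degrees of freedom of both fits added, so errors of the tables were treated as independent. Folds given beside means are ratios of mean FPKM. Genes below the minimum and ratios within a rat were tested by an exact two-sided permutation test, whose smallest p for 3 against 3 is 0.1. Other steps used Python 3.11.15, numpy 2.4.6, pandas 2.3.3 and scipy 1.17.1. The fits were tested on simulated data.

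The members and gene lists were chosen with earlier results of these data known. The text names all members, the pathway genes that were a DEG in either model, and Anpep, Atp6ap2 and Lnpep whatever their values, and for each member the 3 most similar genes. Nr3c2, Ctsa, Nln and Hsd11b2 were named after their values were seen. Some genes of the lists were left out and are not reported here. Promoter windows were taken from RefSeq (GRCr8) by symbol, and 7 of 8 members matched, with Agt named only. Alternatives were pseudocounts of 1 and 0.01, no minimum level, a minimum of 1 FPKM, quantile normalization, median-of-ratios scaling, equal FPKM sums, no trend in eBayes, the replicate number as a block, log2 ratios of the group means, an added threshold of 2 on the log2 fold change, and leaving out each rat in turn. Quantitative PCR, staining and serum results were not analysed here.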

Additional observations from a re-analysis of the deposited data

Results flagged for a closer look

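Of 20 genes that could be compared between the models (6 members and 14 of the pathway list), 6 had log2 fold changes that differed by the test of the difference itself, given here as adenine minus UUO, namely 3 members and 3 of the list, against 27.0% of the 13486 symbols compared. Agtr1a (-1.39, adjusted p = 0.00482), Agtr1b (-2.01, adjusted p = 0.0121) and Nr3c2 (1.71, adjusted p = 0.00632) passed it in all 21 alternatives, and Agtr1b was tested with adenine only through its level in the control rats. Mme (-1.02, adjusted p = 0.0475) lost the call in 14 of 21 alternatives. Ctsa, a lysosomal carboxypeptidase (0.84, adjusted p = 0.0391), and Prcp (0.85, adjusted p = 0.0425) each lost it in 11 of 21 alternatives, with adjusted p up to 0.102. Ctsa rose with adenine (log2 fold change 1.11, adjusted p = 0.00554) and had a log2 fold change of 0.27 with UUO (adjusted p = 0.171). Between the models, route of injury, duration and table were all different and cannot be told apart.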

How the results depend on the processing

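Over the single genes, 758 of 858 alternative values kept their direction and side of the threshold, 53 lost the call, 18 gained it and 29 changed sign. The falls of Agt, Mme and Enpep in both models and of Agtr1a and Agtr1b with adenine kept their call in every alternative that gave a test. Leaving out each rat in turn gave 5 to 6 members past the test with adenine and 3 to 4 with UUO, 2 to 3 members differing between models, and 6 to 8 (adenine and UUO) pathway genes. Adding the threshold of 2 on the log2 fold change left 4 pathway genes with adenine, 2 with UUO and 1 member differing between models, since fewer genes pass both. Rescaling FPKM to the same sum gave 12 pathway genes with UUO, against 7 as reported, and quantile normalization gave 5 with adenine, against 8 as reported. That rescaling moved the median log2 fold change of all genes to 0.56 and 0.83, and median-of-ratios scaling moved it to 0.014 and 0.032. Values changed sign only for results that did not pass the test as reported. With UUO these were Ace (-0.46 with median-of-ratios scaling, -0.57 with quantile normalization, -0.33 as the log2 ratio of the group means, -0.29 without sham rat 2 or 3, -0.12 without UUO rat 1, and up to 0.98 without sham rat 1), Agtr1a (-0.21 and -0.12 with these scalings), Kng1 (-0.40 and -0.71 with them, -0.036 as the log2 ratio of the group means, -0.54 without sham rat 1, -0.17 without UUO rat 1, -0.028 without UUO rat 2, and up to 0.70 without sham rat 3), Ctsa (-0.33 with median-of-ratios scaling) and Lnpep (-0.058 without sham rat 2, -0.26 without UUO rat 3, and up to 1.10 without sham rat 3). With adenine they were Mas1 (0.39 with a pseudocount of 0.01, 0.25 without control rat 1, 0.0082 without control rat 3, and down to -0.85 without control rat 2), Atp6ap2 (0.041 with quantile normalization, 0.19 with the same sum, 0.083 without adenine rat 2, and down to -0.20 without adenine rat 1) and Nr3c2 (-0.17 with quantile normalization). Differences between models changed sign for Ace (-0.020 without control rat 1, -0.45 without sham rat 1, and up to 0.96 without control rat 3), Nln (0.091 with median-of-ratios scaling, 0.059 with quantile normalization) and Hsd11b2 (-0.090 without control rat 2). The causes were not tested.

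Rats of different groups share only a number in the labels. Deviations of same-numbered rats correlated at -0.077, -0.12 and -0.049 with adenine and at 0.050, 0.11 and 0.059 with UUO. Those of different-numbered rats correlated at -0.044 to 0.11 with adenine and at -0.078 to 0.016 with UUO. Same-numbered rats were thus below all others with adenine and above all others with UUO. With 3 rats per group, deviations from their own mean cannot show whether the numbers pair the rats. With the replicate number as a block, 5 members passed the test with adenine and 3 with UUO, 3 differed between models, and 7 (adenine) and 8 (UUO) pathway genes passed.

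The main limits are 3 rats per group, an unknown depth and missing counts. Low levels such as those of Mas1 and Agtr2 cannot be told from zero, and RNA levels say nothing of peptide or enzyme amounts.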

Other observations

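Among the pathway genes not yet described, Nln, the oligopeptidase neurolysin, rose in both models, with log2 fold changes of 1.05 with adenine (adjusted p = 0.000992) and 1.26 with UUO (adjusted p = 6.42e-05). It was at 7.96, 5.87 and 6.55 FPKM in the control rats and at 13.3, 14.2 and 14.6 FPKM in the adenine rats. The sham rats lay at 7.92, 7.81 and 8.02 FPKM and the UUO rats at 17.6, 19.9 and 19.9 FPKM, so the groups did not overlap in either model. Hsd11b2, which shields the mineralocorticoid receptor from glucocorticoids, fell in both, by 1.12 with adenine (adjusted p = 0.0297) and by 1.40 with UUO (adjusted p = 0.00324) on the log2 scale. Its call with adenine was lost without control rat 1, control rat 3, adenine rat 2 or adenine rat 3, with adjusted p of 0.0893, 0.0913, 0.0526 and 0.0956, and with quantile normalization (adjusted p = 0.0567) or FPKM rescaled to the same sum (-0.85, adjusted p = 0.0677). Without control rat 2 the log2 fold change of Hsd11b2 with adenine was -1.49 (adjusted p = 0.00500). Cma1, a mast cell chymase that can form angiotensin II, was listed at 0 in all control rats and at 0.347, 0.367 and 0.0772 FPKM in the adenine rats. It was at 0.0001 in all sham rats and at 3.17, 0.124 and 0.292 FPKM in the UUO rats, below the minimum level for testing, and it was named after its values were seen.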
